A study of Mus musculus with 22 samples.

Results

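Pcdh19 encodes protocadherin 19, a single-pass membrane protein of the cadherin superfamily that holds neighbouring cells together by binding the same protein on the next cell in the presence of calcium. It belongs to the delta protocadherins, a group of non-clustered protocadherins. It can act in a complex with N-cadherin (Cdh2), and its cytoplasmic tail binds the WAVE complex, which drives actin assembly at the membrane. The metalloprotease ADAM10 and then gamma-secretase can cut the protein, and the freed tail can enter the nucleus and join a complex that holds the histone demethylase LSD1 (Kdm1a). The protein also binds NONO, a nuclear cofactor of oestrogen receptor alpha (Esr1). The human gene is X-linked and is best known from an epilepsy of girls and women who carry 1 mutated copy. Most of this knowledge comes from brain and cell culture, and the cell type that makes the transcript in the gut was not determined here.

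The gene is 1 of 46603 in the deposited tables and was found there by its symbol. It was chosen by measured values, namely its lower level in libraries of mice exposed to PFOS (perfluorooctanesulfonic acid, a persistent fluorinated surfactant). Its PFOS differences are therefore given as a description, with standard errors and without a test. Measures of 2 kinds did not use the PFOS differences and were tested: the fibre differences averaged over exposure, and the variation between libraries of 1 group. Both rest on the spread within groups, which also sets how clear a PFOS difference looks. The fibre differences also include the exposed libraries, whose low values chose the gene. The p-values of both kinds are therefore not wholly free of that choice.

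RNA was sequenced from intestinal tissue of wild-type male C57BL/6 mice that were 7 weeks old at the start and stayed on their diet for 7 weeks. All diets held 8% fibre by weight, and 35% of the energy came from fat. The unexposed groups were Control (cellulose, a poorly fermented fibre, n = 4), Inulin (a fermentable fructan, n = 3) and Pectin (a fermentable galacturonan, n = 4). The exposed groups were PFOS (cellulose, n = 4), Inulin_PFOS (n = 3) and Pectin_PFOS (n = 4), whose drinking water supplied PFOS at a daily 3 µg per kg of body weight. A treatment entry that mentions PFOS stands in the labels of all 22 samples, unexposed groups included, so exposure was read from the group name in the title. The gut segment is not named in the labels, and whether the replicates are different animals is not said in plain words. The p-values here reflect the spread among the sequenced samples, which may be technical in part.

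Library totals ran from 17613322 to 20261370 estimated counts. The tissue label was checked on markers: 8 genes of intestinal epithelium summed to between 4492 and 12108 TPM (a level corrected for gene length and library depth), and 7 genes of exocrine pancreas to at most 1.64 TPM. The mitochondrial share of counts was 2.85% to 3.51% in Pectin_PFOS and 3.74% to 14.9% in Control. One library stood apart, Pectin_PFOS 1, with a scaling factor for library size of 0.749 and 12919 genes at 10 or more counts. Some of the results that include it are given with and without it, and the others only with it.

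Pcdh19 (ENSMUSG00000051323) lies on the minus strand of chromosome X, from 133582860 to 133688987 on GRCm38, the build whose gene coordinates the deposited tables hold. GENCODE M21 lists 5 transcripts there. The longest, Pcdh19-202, has 6 exons and 10289 exonic bases with a coding length of 3435 bases, and its first exon alone holds 3870 bases. Pcdh19-203 and Pcdh19-201 have 5 exons each and 8407 and 7035 exonic bases. A single annotated gene overlaps the locus, the long non-coding RNA gene Gm26851 on the plus strand, from 133687780 to 133707262. Gm26851 had at most 1 count and 0.09 TPM in any library, so hardly any reads were assigned to it.

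The stretch before the gene's start is shown because the gene's level differed between groups, and it lets a reader see which common promoter elements it holds. It is RefSeq's sequence on GRCm38.p6 for chrX:133689045-133689243, minus strand, 199 bases that end just before the outermost annotated RefSeq start, written 5′ to 3′ in the direction of the gene. Capitals mark a GC box (GGGCGG) and a CCAAT box (CCAAT), both of which read on the opposite strand.
Pcdh19 promoter: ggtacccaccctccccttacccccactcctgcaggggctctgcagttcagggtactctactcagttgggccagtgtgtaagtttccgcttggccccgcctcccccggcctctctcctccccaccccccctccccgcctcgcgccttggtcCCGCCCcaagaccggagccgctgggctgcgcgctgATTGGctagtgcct
The CCAAT box lay 65 bases and the GC box 100 bases before the RefSeq start site. Both strands of the 250 bases before that start were searched, and 33.9% of 32851 promoter windows of the same length held CCAAT and 32.7% held GGGCGG. The window held no TATA box (TATAAA, present in 12.4% of windows), no E-box (CACGTG, in 6.02%) and no cyclic AMP element (TGACGTCA, in 1.55%). It also held no core site of nuclear receptors (AGGTCA, in 14.0%), of which a direct repeat spaced by 1 base stood in 0.0335% of windows. Its GC content was 69.2% against a median of 52.4%, and its 16 CpG dinucleotides compare with a median of 6. A share of 25.4% of windows held at least that many CpG.

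Pcdh19 was a gene of low abundance in every group. The 22 libraries held 1675 counts of it together, from 13 to 166 counts each. In CPM, counts scaled to a common library size with TMM (trimmed mean of M values), it ranged from 0.761 to 9.995 CPM. On the length-corrected scale it averaged 0.725 TPM, rank 3 among 10 delta protocadherin genes, below Pcdh1 at 44.6 TPM and Pcdh7 at 1.36 TPM and above Pcdh18 at 0.49 TPM. Averages of the other 6 were 0.225 TPM or less.

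On cellulose, the 4 Control libraries held 6.46, 6.00, 4.89 and 7.09 CPM of Pcdh19. The 4 PFOS libraries held 2.95, 2.07, 5.20 and 4.41 CPM. Of the 4 exposed libraries, 3 lay below the lowest Control library, and the third replicate lay above it, so the groups overlapped. The log2 fold change was -0.74 ± 0.35 (SE), a level 1.67 times lower.

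On inulin, the unexposed libraries held 9.995, 4.00 and 6.58 CPM of Pcdh19, the widest spread of any group. The 3 Inulin_PFOS libraries held 2.10, 2.15 and 1.14 CPM, from 37, 39 and 21 counts. All 3 exposed libraries lay below all 3 unexposed ones. The log2 fold change was -1.93 ± 0.43 (SE), a level 3.81 times lower.

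On pectin, the unexposed libraries held 6.60, 4.97, 2.89 and 2.96 CPM of Pcdh19. The 4 Pectin_PFOS libraries held 0.922, 0.761, 1.63 and 1.72 CPM, from 14, 13, 29 and 33 counts. This group had the lowest mean, although Inulin_PFOS 3 lay below 2 of its libraries, and none of the 4 reached the lowest Pectin library. The log2 fold change was -1.78 ± 0.38 (SE), a level 3.43 times lower, and it was -1.66 ± 0.41 (SE) without the library Pectin_PFOS 1. Counting error was largest here: the 95% exact Poisson interval of 13 counts runs from 6.92 to 22.2 counts, and such intervals cover counting error only.

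**Figure D1:**
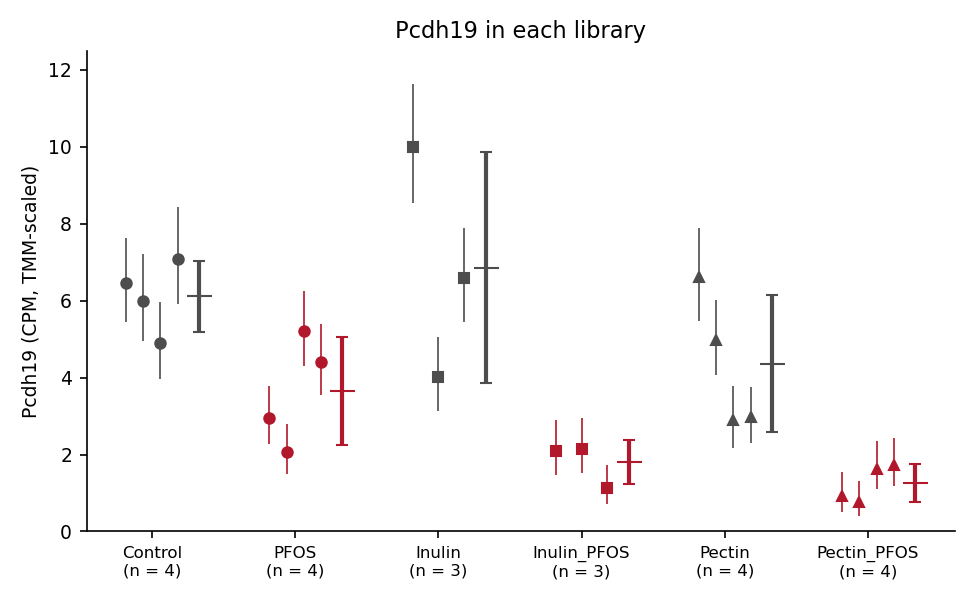
Pcdh19 in TMM-scaled CPM (y axis) in each of the 22 libraries (points with 95% exact Poisson intervals of counting error), by group (x axis, grey unexposed, red exposed to PFOS), with the group mean ± SD as the bar to the right of each group. The Inulin_PFOS and Pectin_PFOS libraries lie between 0.761 and 2.15 CPM, below all unexposed libraries, whereas the PFOS and Control libraries overlap.

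Ordered by mean level, Inulin stood highest at 6.86 ± 3.01 CPM (SD, n = 3), followed by Control at 6.11 ± 0.926 CPM (SD, n = 4) and Pectin at 4.36 ± 1.78 CPM (SD, n = 4). The exposed groups followed in the order PFOS at 3.66 ± 1.41 CPM (SD, n = 4), Inulin_PFOS at 1.80 ± 0.570 CPM (SD, n = 3) and Pectin_PFOS at 1.26 ± 0.489 CPM (SD, n = 4). Each group's range overlapped that of its neighbour in this order, so no adjacent pair was separated, although the highest mean was 5.44 times the lowest. In a bulk sample of this kind, fewer cells of a type and less RNA per cell cannot be told apart.

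Averaged over the 3 diets, the PFOS difference of Pcdh19 was -1.48 ± 0.22 (SE) on the log2 scale, a level 2.79 times lower. Of the 15763 genes tested, 0.672% had a value as low or lower in that average. The share was 5.51% on cellulose, 0.996% on inulin and 2.18% on pectin. These shares give the rank of a gene chosen for being lower with PFOS, and they are not p-values. The difference between diets was -1.19 ± 0.55 (SE) for inulin minus cellulose and -1.04 ± 0.51 (SE) for pectin minus cellulose, given as a description since it uses the contrast that chose the gene. Leaving out each library in turn kept all 3 within-diet values below 0, at -0.93 to -0.52 on cellulose, -2.25 to -1.56 on inulin and -1.95 to -1.51 on pectin.

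The fibre comparisons average over exposure, and each diet has equal numbers of exposed and unexposed libraries, so the PFOS difference itself largely cancels. They still include the exposed libraries, whose low values chose the gene, so their p-values are not wholly free of that choice. On pectin and cellulose the means were 4.36 and 6.11 CPM unexposed, and 1.26 and 3.66 CPM exposed. Pcdh19 was lower on pectin than on cellulose, by a log2 fold change of -1.01 ± 0.26 (SE) averaged over exposure (edgeR quasi-likelihood test, Benjamini-Hochberg adjusted p = 0.0102). That is a level 2.01 times lower. Among the unexposed libraries the pectin range of 2.89 to 6.60 CPM overlapped the cellulose range of 4.89 to 7.09 CPM. Among the exposed libraries the pectin range of 0.761 to 1.72 CPM lay wholly below the cellulose range of 2.07 to 5.20 CPM. The call held in each of 22 omissions of a library, with adjusted p from 0.0073 to 0.0306. It was also 1 of many, since 21.8% of all genes tested were called in this comparison.

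The other fibre differences of Pcdh19 did not pass the test. Inulin against cellulose gave -0.43 ± 0.28 (SE, adjusted p = 0.366), where 3.96% of genes were called. Pectin against inulin gave -0.58 ± 0.28 (SE, adjusted p = 0.418), where edgeR called 0% of genes, with 1892 genes at an unadjusted p under 0.05 and 174 called by DESeq2. These values do not show that the levels were alike.

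The deposited TPM values of Pcdh19 gave a different order of libraries than CPM within Control, PFOS and Inulin_PFOS. In ratio, unexposed and exposed means lay closer in TPM than in CPM on cellulose and inulin, but not on pectin. Those TPM means were 1.04 and 0.80 on cellulose, 1.12 and 0.357 on inulin, and 0.845 and 0.195 on pectin. TPM was 1.40, 0.99, 0.85 and 0.93 in Control and 0.94, 0.43, 1.04 and 0.80 in PFOS. It was 1.75, 0.66 and 0.94 in Inulin and 0.30, 0.33 and 0.44 in Inulin_PFOS. It was 1.5, 1.00, 0.40 and 0.48 in Pectin and 0.12, 0.11, 0.25 and 0.30 in Pectin_PFOS. As with CPM, exposed and unexposed libraries of a diet overlapped on cellulose and did not overlap on inulin or pectin. On cellulose PFOS 1, below all Control libraries in CPM, lay above the lowest of them in TPM (0.94 against 0.85). The third Inulin_PFOS library, however, was the lowest of its group in CPM and the highest in TPM.

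The ratio of counts to TPM shows the transcript length that the authors' quantification used for the gene, once it is scaled on 219 genes with a single transcript. For 18 libraries this length was between 7116 and 8189 bases, near the exonic lengths of Pcdh19-201 and Pcdh19-203. It was shorter in 4 libraries, at 2720 bases in Inulin_PFOS 3, 4121 in Pectin 1, 5569 in PFOS 1 and 5611 in Pectin 2. Rounding of the TPM values leaves between 2689 and 2751 bases for the shortest. The short values occurred in exposed and unexposed libraries and on all 3 diets. Without these 4 libraries, an alternative chosen after seeing the data, the pectin value of Pcdh19 was -1.21 on the log2 scale in place of -1.78. Which exons the reads covered was not analysed here.

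**Figure D2:**
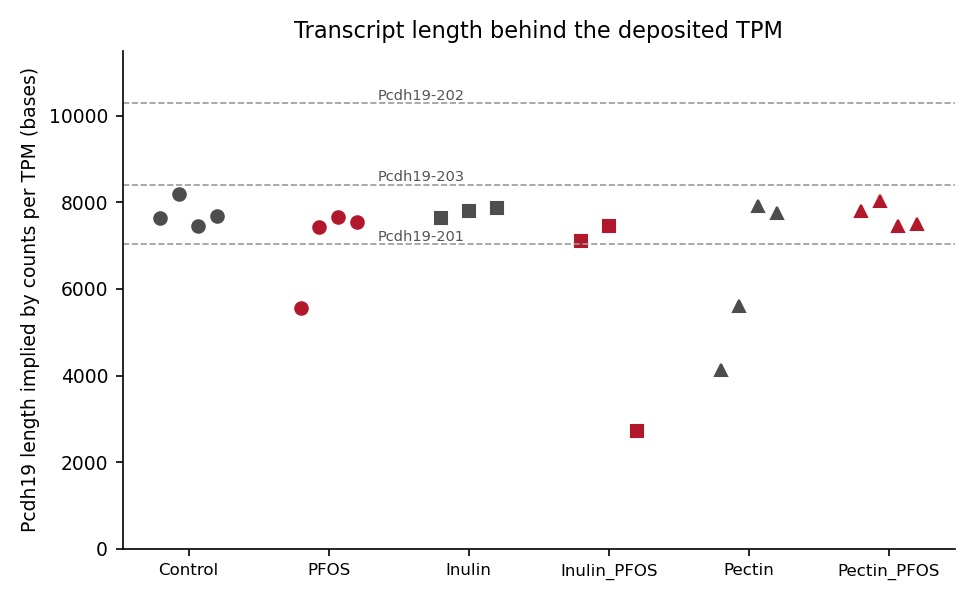
Length of Pcdh19 in bases (y axis) implied by the ratio of deposited counts to TPM in each library (points), by group (x axis, grey unexposed, red exposed), with dashed lines at the exonic lengths of 3 annotated transcripts. The 4 shortest lie at 5611 bases or less and the other 18 between 7116 and 8189 bases.

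Co-variation with other genes was measured after removing the 6 group means, on the log2 CPM scale over 22 libraries. Pcdh19 itself varied between libraries of a group with an SD of 0.52. The nearest genes were picked by their correlation among 12553 genes with a mean of at least 1 CPM and a symbol, so they are listed as a description. All points share library, depth and tissue piece. The middle 90% of those genes had r between -0.40 and 0.40.

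Zfp760, a zinc finger gene on chromosome 17, followed Pcdh19 most closely (r = 0.79, Spearman's rho = 0.81, and r = 0.77 without the 2 farthest libraries). Cenpj, a centriole assembly factor, came next at r = 0.75. Tbc1d24, another gene known for human epilepsy when mutated, had r = 0.72, and Cpt1b, the muscle form of the enzyme that admits fatty acids to mitochondria, r = 0.72. Ranbp6 (an importin-related gene), Msl2 (a ubiquitin ligase of the MSL chromatin complex), Adipor2 (an adiponectin receptor) and D3Ertd751e each had r = 0.70. The same genes differed in how they stood across the groups. Tbc1d24 had a PFOS log2 difference of -1.16 ± 0.41 (SE) on inulin but 0.90 ± 0.35 (SE) on pectin, unlike Pcdh19, which was lower in both.

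Genes with the opposite pattern within groups were Stx6, a syntaxin of the trans-Golgi network (r = -0.78, rho = -0.77), Tgfbr2, a receptor for TGF-beta (r = -0.75), Kat5, a histone acetyltransferase (r = -0.72), and Nkain1 (r = -0.72). Stx6 was also opposed across the groups. It averaged 19.2 CPM in Control, 21.7 CPM in Inulin and 19.7 CPM in Pectin, against 19.8 CPM in PFOS, 28.0 CPM in Inulin_PFOS and 28.3 CPM in Pectin_PFOS.

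Without removing group means, the closest genes were Ranbp6 (r = 0.87), Zranb2 (an RNA-binding zinc finger protein, r = 0.84), Zfp760 (r = 0.84), Spopl (a ubiquitin ligase adaptor, r = 0.80), Cmc4 (r = 0.80), Prpf4b (a kinase of the splicing machinery, r = 0.80), Zfp715 (r = 0.79) and Upp2 (a uridine phosphorylase, r = 0.77). Ranbp6 and Zfp760 were in both sets of 8. Cmc4 is, like Pcdh19, on chromosome X. These correlations use the PFOS difference that chose Pcdh19, so they describe which genes had a like order of groups. On cellulose Ranbp6 averaged 13.8 ± 2.34 CPM unexposed and 11.8 ± 1.61 CPM exposed (SD, n = 4 each). On inulin it averaged 14.0 ± 3.74 CPM unexposed and 8.69 ± 0.158 CPM exposed (SD, n = 3 each), and on pectin 12.4 ± 3.82 and 8.76 ± 1.05 CPM (SD, n = 4 each). Its PFOS log2 differences of -0.23 on cellulose, -0.68 on inulin and -0.50 on pectin were each smaller than those of Pcdh19. The PFOS log2 differences of Spopl were -0.04 on cellulose, -0.16 on inulin and -0.74 on pectin.

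**Figure D3:**
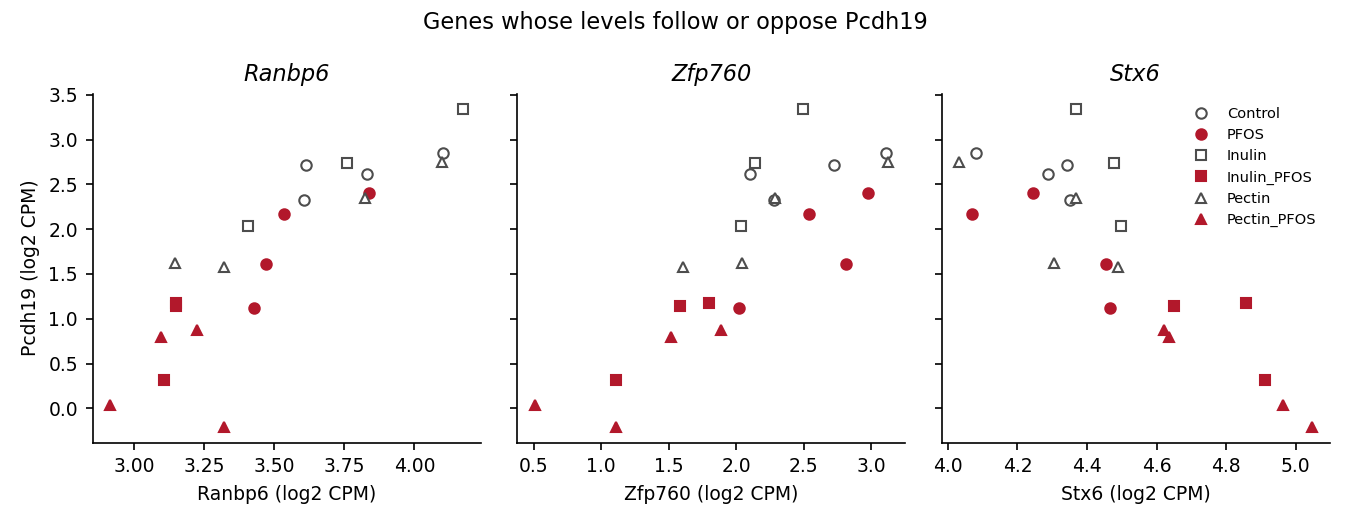
Pcdh19 (y axis, log2 CPM) against Ranbp6, Zfp760 and Stx6 (x axes, log2 CPM) in each of the 22 libraries (points, shape by diet, filled red exposed to PFOS, open grey unexposed). Pcdh19 was higher in libraries with more Ranbp6 and Zfp760 (r = 0.87 and 0.84 over all libraries) and lower in those with more Stx6 (r = -0.85).

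Cell type markers were compared with Pcdh19 in the same way, as the mean log2 CPM of 21 lists. None of the 21 correlations within groups passed (two-sided permutation within groups, 100000 resamples, Benjamini-Hochberg adjusted p of 0.77 or more), and none had an unadjusted p under 0.05. The highest was the Paneth cell list, secretory cells at the base of the crypt, at r = 0.40 and rho = 0.35 (permutation p = 0.0717 and 0.139, adjusted 0.771 and 0.803). Its r was 0.42 without the 2 farthest libraries. The lowest was the intestinal epithelium list at r = -0.32 (permutation p = 0.122, adjusted 0.771). Without Pectin_PFOS 1 the Paneth cell list stood at r = 0.37 and the epithelium list at -0.27, and the lowest was the myeloid cell list at -0.41. On log2 TPM the Paneth cell list stood at 0.18, the epithelium list at -0.04 and the goblet cell list highest at 0.44 (permutation p = 0.0454, adjusted 0.877). Fibroblast markers had r = 0.13, smooth muscle markers -0.05, enteric neuron markers -0.19 and enteric glia markers 0.18. With 22 libraries these values do not show that Pcdh19 varies apart from any of these cells.

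**Figure D4:**
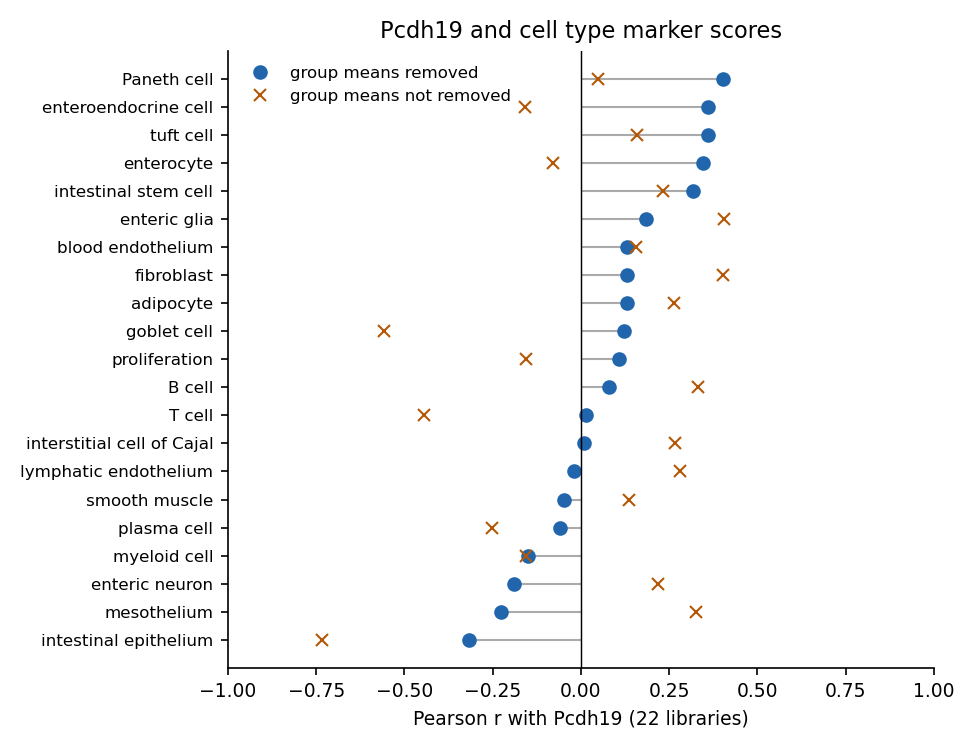
Pearson correlation (x axis) of Pcdh19 with the mean log2 CPM of each of 21 marker lists (rows) over 22 libraries, after removing group means (blue points) and without removing them (orange crosses). Within groups the values run from -0.32 to 0.40, and without removing group means intestinal epithelium stands lowest at -0.73.

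The mitochondrial share of counts moved with Pcdh19 within groups, with r = 0.41 and rho = 0.49 over 22 libraries (two-sided permutation within groups, p = 0.0415 and 0.0347). These p-values were not adjusted for the other measures compared with Pcdh19, among them the 21 marker lists. Without the 2 farthest libraries r was 0.52. Within groups this share also had r = 0.76 with the Paneth cell list, 0.63 with the intestinal stem cell list and -0.55 with the intestinal epithelium list. The correlations of Pcdh19 with this share and with those lists are therefore not separate observations. Between groups the lowest shares were those of Pectin_PFOS, the group with the least Pcdh19. Inulin_PFOS had 3.95% to 7.90% against 5.16% to 12.2% in Inulin, and PFOS had 4.26% to 9.16% against 3.74% to 14.9% in Control. The part of this share in the Pcdh19 differences was not tested.

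Markers of other cells changed alongside Pcdh19 on pectin. On inulin edgeR called 0 markers of the fibroblast, Paneth cell and enterocyte lists, and their medians had the other sign. On cellulose the fibroblast and Paneth cell medians had the sign seen on pectin. In Pectin_PFOS against Pectin, where 20.8% of all genes were called, 6 of 12 fibroblast markers and 6 of 9 Paneth cell markers fell, and 5 of 12 enterocyte markers rose. Without the library Pectin_PFOS 1 these counts were 4, 1 and 3, where 1360 of 15762 genes were called in place of 3277 of 15763. The summed fibroblast markers were at 250 to 333 TPM in Pectin and 78.2 to 157 TPM in Pectin_PFOS. In Inulin_PFOS against Inulin, where Pcdh19 was also lower, edgeR called 0 of the markers of these 3 lists (7 fibroblast, 6 Paneth cell and 3 enterocyte markers at an unadjusted p under 0.05, and 1 Paneth cell marker called by DESeq2, higher). The fibroblast median was 0.90 on the log2 scale, with summed levels of 187 to 329 TPM exposed and 164 to 239 TPM unexposed. In PFOS against Control, where 0% of all genes were called, edgeR and DESeq2 called 0 of the markers of these 3 lists. The medians there were -0.38 for fibroblast, -0.86 for Paneth cell and 0.005 for enterocyte markers, with 3, 5 and 1 at an unadjusted p under 0.05. B cell markers had negative medians in all 3 diets, at -1.78 on cellulose, -2.22 on inulin and -1.84 on pectin, with 0 of 9 called in each by edgeR and by DESeq2 (0, 1 and 1 at an unadjusted p under 0.05). Averaged over diets their median was -1.98, with all 9 at an unadjusted p under 0.05, 0 called by edgeR and 1 by DESeq2. Their summed level varied within groups, from 4.14 to 508 TPM in Control alone. Adipocyte markers also had negative medians in all 3 diets, at -0.77, -0.33 and -1.93 on cellulose, inulin and pectin, with 1 of 7 called on pectin (0 without Pectin_PFOS 1). Mesothelium markers had medians of -0.35, -1.14 and -1.27, with 0 of 5 called by edgeR or DESeq2 and 0 at an unadjusted p under 0.05 in each diet. The part of any of these cells in the Pcdh19 differences was not tested.

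With PFOS, other delta protocadherins were called on pectin alone. Of the 9 other members, 6 passed the filter on low counts and were tested, and Pcdh8, Pcdh10 and Pcdh11x did not pass, at no more than 0.27 TPM in any library. With PFOS on cellulose 0 of 6 were called, where 0% of all genes were called (842 genes had an unadjusted p under 0.05, and DESeq2 called 1). With PFOS on inulin 0 of 6 were called, where 0.159% of genes were, and averaged over diets again 0 of 6, where 0.159% were. DESeq2 likewise called 0 of 6 in these 3 comparisons, and 0, 2 and 0 members had an unadjusted p under 0.05. Their median log2 difference was 0.14 on cellulose, 0.48 on inulin and -0.63 on pectin, against -0.04, -0.01 and -0.06 for all genes. On inulin Pcdh7, Pcdh17 and Pcdh18 had positive values of 1.00 ± 0.40, 1.11 ± 0.50 and 1.00 ± 0.56 (SE), none past the test (adjusted p = 0.2, 0.243 and 0.338), beside -1.93 for Pcdh19. On pectin, where 20.8% of all genes were called, 1 of the 6 was called higher and 2 lower. Pcdh1 rose by 1.12 ± 0.30 (SE, adjusted p = 0.0151), and Pcdh7 and Pcdh18 fell by 1.28 ± 0.35 and 1.60 ± 0.49 (SE, adjusted p = 0.018 and 0.0282). Pcdh9, Pcdh17 and Pcdh20 had values of -0.10, -0.55 and -0.70 there and were not called. The calls of Pcdh1 and Pcdh18 were lost without Pectin 2 or Pectin_PFOS 1, and that of Pcdh18 also without Pectin 1 or Pectin_PFOS 2 (adjusted p up to 0.0563 and 0.0709). The Pcdh7 call was kept in all 22 omissions but lost with limma on TPM and without the 4 libraries of short implied length. Over all settings its log2 value came as near to 0 as -0.47, with adjusted p up to 0.192. Without Pectin_PFOS 1, 0 of the 6 were called higher and 1 lower, where 1360 of 15762 genes were called.

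**Figure D5:**
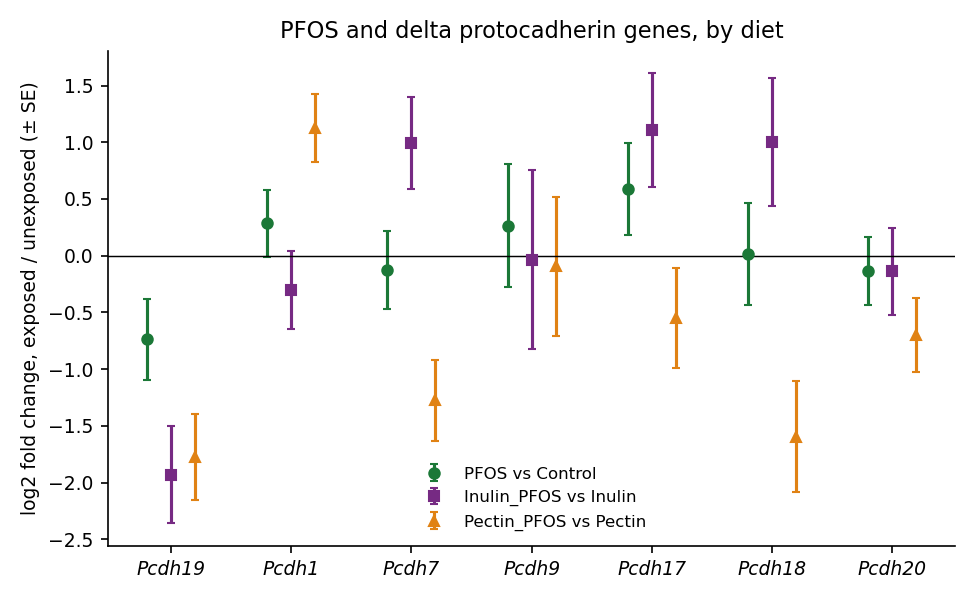
Log2 fold change, exposed over unexposed, ± SE (y axis) of Pcdh19 and of the 6 other delta protocadherins tested (x axis), on cellulose (circles), inulin (squares) and pectin (triangles). Pcdh19 lies below 0 on all 3 diets, while Pcdh7 and Pcdh18 lie at 1.00 on inulin and at -1.28 and -1.60 on pectin.

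With the fibre, 4 of the 6 other delta protocadherins fell alongside Pcdh19. In pectin against cellulose averaged over exposure, Pcdh7 fell by 0.93 ± 0.25, Pcdh17 by 1.33 ± 0.30, Pcdh18 by 1.21 ± 0.33 and Pcdh20 by 0.85 ± 0.22 (log2, SE, adjusted p = 0.012, 0.00546, 0.0152 and 0.0121). All 4 kept the call in each of the 22 single omissions and lost it without the 4 libraries of short implied Pcdh19 length (adjusted p = 0.0717, 0.0596, 0.0832 and 0.0610). The median of the list was -0.89, against -0.06 for all genes, and the share of all genes called was 21.8%. In inulin against cellulose, where 3.96% of all genes were called, edgeR called 1 of the 6, Pcdh20, at -1.07 ± 0.25 (SE, adjusted p = 0.0238). DESeq2 called 4 lower, edgeR without Pectin_PFOS 1 called 3 lower, and 5 of the 6 had an unadjusted p under 0.05. Single omissions gave 140 to 963 called genes among all genes in this comparison. The Pcdh20 call was lost without PFOS 2, Inulin 2, Inulin_PFOS 1 or Inulin_PFOS 3 (adjusted p up to 0.069), and also with either replicate block or without the 4 libraries of short implied length (adjusted p up to 0.131). Markers of other cells fell in the same pectin comparison, with 9 of 12 fibroblast markers and 5 of 7 enteric glia markers lower and 0 higher (6 and 4 without Pectin_PFOS 1, and 5 to 11 and 3 to 5 over all single omissions). Over those omissions 2538 to 3729 of all genes were called. The part of these cells in the result was not tested.

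Among the partners of the Pcdh19 protein, N-cadherin (Cdh2), the partner in adhesion, averaged 0.31 TPM and was not called in any comparison, with PFOS values of 0.06 ± 0.58, 0.61 ± 0.72 and -0.39 ± 0.63 (SE) on cellulose, inulin and pectin. On pectin against cellulose Cdh2 stood at -1.07 ± 0.43 (SE, edgeR adjusted p = 0.0765), short of the threshold, beside -1.01 for Pcdh19. E-cadherin (Cdh1), the main cadherin of epithelia, averaged 176 TPM and likewise passed no test. Of the catenins, which tie cadherins to actin, beta-catenin (Ctnnb1) averaged 347 TPM, with PFOS values between -0.25 and 0.09. Of the 12 genes of the WAVE complex, 2 rose (Wasf2 and Nckap1) and 2 fell (Wasf3 and Abi2) in Pectin_PFOS against Pectin, where 20.8% of all genes were called, and Cyfip1, Cyfip2 and Abi1 passed no test in any of the 7 comparisons. The Nckap1 call was kept in 8 of the 22 single omissions. Adam10, which cuts the ectodomain, had PFOS values of -0.21, 0.25 and -0.05 and rose on pectin against cellulose by 0.70 ± 0.16 (SE, adjusted p = 0.0059), a call lost with limma on TPM (down to 0.34 on the log2 scale, adjusted p up to 0.0711). Kdm1a and Nono passed no test, with PFOS values between -0.34 and 0.09.

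The 5 lists around Pcdh19 hold 61 genes, of which 52 were tested. With PFOS, edgeR called 0 of the 52 on cellulose (1 at an unadjusted p under 0.05), 0 on inulin (3 unadjusted) and 0 averaged over diets (7 unadjusted), and DESeq2 also called 0 in each. In Pectin_PFOS against Pectin, 19 of 52 were called, 12 higher and 7 lower, or 36.5% beside 20.8% of all genes. The median was -0.27 for the cadherins, 0.09 for the catenins, -0.32 for the WAVE complex and 0.10 for the cleavage and nuclear partners, beside -0.06 for all genes. Those called higher included, beyond Pcdh1, the epithelial cadherins Cdh17, Cdhr2 and Cdhr5 with Fat1, the catenins Ctnnd1 and Jup, the WAVE subunits Wasf2 and Nckap1, and the gamma-secretase subunits Ncstn and Aph1a. Those called lower beyond Pcdh7 and Pcdh18 were Cdh11 (a mesenchymal cadherin), Cdh19 (a cadherin of glia), Ctnna2, Wasf3 and Abi2. Cdhr5, a brush border protocadherin at 1034 TPM on average, rose by 1.53 ± 0.30 (SE, adjusted p = 0.00399), and Ncstn by 1.30 ± 0.24 (SE, adjusted p = 0.00377).

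Only 7 of those 19 calls were kept in each of the 22 omissions of a library, among them those of Pcdh7, Cdhr2, Cdhr5, Fat1, Wasf2 and Ncstn. The other 12 were each lost without Pectin_PFOS 1, and all of these but Abi2 also without at least 1 further library, with adjusted p up to 0.165 (Nckap1). None of the 19 held without the 4 libraries of short implied Pcdh19 length, which left 2 Pectin libraries. Over all genes, 1360 were called without Pectin_PFOS 1, against 3277 with it (1790 higher and 1487 lower). Scaled by library totals alone, which moved the median of all genes by -0.21 in this comparison, the split was 576 higher and 2386 lower, and Pcdh19 stood at -1.93.

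Between fibres, 17 of the 52 genes were called on pectin against cellulose, 4 higher and 13 lower (32.7% beside 21.8% of all genes). The medians were -0.67 for cadherins, 0.28 for catenins, 0.17 for the WAVE complex and 0.16 for the cleavage and nuclear partners. Esr1, the oestrogen receptor whose cofactor NONO binds Pcdh19, fell by 2.06 ± 0.28 (SE, adjusted p = 0.000104), and kept the call in every omission (adjusted p up to 0.000424). Esr1 averaged 0.619 TPM, close to the level of Pcdh19. Also lower were Cdh3, Cdh11, Cdh19, Dchs1, Ctnna2, Wasf1, Wasf3 and Abi2 besides the 4 delta protocadherins, and higher were Cdh17, Celsr1, Adam10 and Psenen. The calls of Cdh3, Abi2 and Psenen were kept in 4, 13 and 14 of the 22 omissions (adjusted p up to 0.0977, 0.0868 and 0.0801), while the other 14 calls were kept in all 22. Over the other settings Cdh19 and Esr1 alone kept the call throughout. Without the 4 libraries of short implied Pcdh19 length all but Cdh17, Cdh19, Celsr1, Adam10 and Esr1 lost it, and Cdh17, Celsr1 and Adam10 lost it with limma on TPM (adjusted p up to 0.359, 0.134 and 0.0711). On inulin against cellulose edgeR called 4 of 52 (7.69% beside 3.96% of all genes), DESeq2 called 11, and 25 had an unadjusted p under 0.05. The 4 were all lower: Pcdh20, Cdh19, Dchs1 and Esr1 (-1.25 ± 0.29, SE, adjusted p = 0.024). Each of these 4 was lost without Inulin_PFOS 1, and each without the 4 libraries of short implied length. Dchs1 was also lost without Control 4, PFOS 2, PFOS 3, Inulin 1 or either of the other Inulin_PFOS libraries (adjusted p up to 0.0902), and Esr1 without Inulin 2 or either of those (adjusted p up to 0.0731). Without Pectin_PFOS 1, 9 of the 52 were called in this comparison, where single omissions gave 140 to 963 called genes among all genes. In pectin against inulin edgeR and DESeq2 called 0 of 52, with 3 at an unadjusted p under 0.05.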

How the data were processed

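Per the labels, column-purified total RNA was made into stranded libraries for DNBSEQ. The authors deposited an expected count (an estimated count of reads, not always whole) and a TPM value per gene and library. HISAT, Bowtie2 and GRCm39 stand in the submitters' processing notes, and the counting program is not given in the sources used here. Gene coordinates nevertheless match GRCm38: 2565 of 2601 X-linked genes shared with GENCODE M21 have the same start and end. Counts were rounded (3.84% to 4.85% of values per library were fractional), filtered with filterByExpr, scaled by TMM and fitted with edgeR 4.0.16 (robust quasi-likelihood F test, two-sided, 1 mean per group, all 22 libraries, R 4.3.3). P-values were Benjamini-Hochberg adjusted over the 15763 genes tested, at a threshold of 0.05. SEs are the size of the log2 fold change over the root of its F. A prior count of 2 went into log2 CPM.

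Pcdh19, the gene lists and the tests were chosen with earlier results of these data known. The named genes were Pcdh19; the 8 highest and 4 lowest correlations within groups and the 8 highest over libraries; all delta protocadherins; fixed partners; and each list gene called. One gene that this rule names is not reported here. Marker scores average the log2 CPM of a list's tested genes. Alternatives were other scalings and filters, DESeq2 1.42.0, limma 3.58.1 on log2 TPM with pseudocounts of 1 and 0.1, replicate blocks and omission of each library. The labels give no batch or date. The fit was checked on simulated counts.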

Additional observations from a re-analysis of the deposited data

Results flagged for a closer look

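One value in a group of 4 lay far from the others. The Pcdh19 length implied by counts and TPM was 5569 bases in the library PFOS 1, whereas the next of the 4 PFOS libraries stood at 7420 bases. The gap was 0.881 of the group's range, above Dixon's 95% critical value for 4 samples. Chance alone marks about 1 in 20 groups by this criterion. The same library held 64 counts, the second lowest of its group, and 0.94 TPM, the second highest. Groups of 3 were not examined in this way, and Inulin_PFOS 3 stood at 2720 bases beside 7116 and 7458 in the other libraries of its group.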

How the results depend on the processing

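All Pcdh19 values kept their sign under every omission and every other setting that gave one; limma with a mean TPM of at least 1 gave none, since the gene averages 0.725 TPM. With limma on log2(TPM + 0.1) without a filter the PFOS value was -1.33 on inulin and -0.38 on cellulose. Without the 4 libraries of short implied length it was -1.21 on pectin, and the interaction with pectin was -0.58. The cause was not tested. Omitting single libraries gave -0.93 to -0.52, -2.25 to -1.56 and -1.95 to -1.51 for PFOS on cellulose, inulin and pectin, -1.57 to -1.35 averaged, -1.54 to -0.83 and -1.25 to -0.77 for the interactions with inulin and pectin, and -0.63 to -0.26, -1.14 to -0.87 and -0.71 to -0.38 for inulin against cellulose, pectin against cellulose and pectin against inulin. The call on pectin against cellulose held in 9 other settings (adjusted p from 0.00167 to 0.0241).

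Counts of called genes moved more. DESeq2 called 1 gene for PFOS on cellulose, 506 on inulin, 206 averaged, 1392 for inulin against cellulose and 174 for pectin against inulin. Limma with pseudocount 1, with 0.1, and with 0.1 without a filter called 12, 15 and 13 genes for PFOS on inulin, 1501, 1662 and 892 on pectin, 10, 9 and 9 averaged, and 1301, 1149 and 1404 for inulin against cellulose; for pectin against inulin it called 4 with pseudocount 1 and 1 without a filter. Library totals alone gave 15 averaged and 1728 for inulin against cellulose, where no filter gave 397. Library totals moved the median of all genes by 0.11 for PFOS on cellulose and by -0.26 and -0.22 for inulin and pectin against cellulose, where calls split into 138 higher and 1590 lower (319 and 305 with TMM) and 602 and 3977 (1532 and 1909); averaged PFOS calls split into 7 and 8 (17 and 8). Without the 4 libraries of short implied length, which left fewer samples, 2, 0, 3, 66 and 1149 genes were called for PFOS on inulin, on pectin and averaged, and for inulin and pectin against cellulose. Omitting single libraries gave 0 for PFOS on cellulose, 2 to 147 on inulin, 1360 to 3846 on pectin, 8 to 42 averaged, 140 to 963 and 2538 to 3729 for inulin and pectin against cellulose, and 0 to 128 for pectin against inulin. With group means not removed, which brings in the PFOS difference that chose the gene, 1 marker list was past the threshold (intestinal epithelium, r = -0.73) in place of 0; this is a description and supports nothing.

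The replicate numbers showed no consistent pairing of the samples: same-numbered libraries of a diet correlated between -0.30 and 0.24. Over all 51 same-numbered pairs, across diets as well, r ran from -0.37 to 0.45, with 12 above 0.1. By the number in the title, 43 pairs ran from -0.37 to 0.39, with 8 above 0.1. The replicate block gave 14 genes for PFOS averaged and 256 for inulin against cellulose, and the block by the number in the title 12 averaged, 41 for PFOS on inulin and 1 for pectin against inulin. Depth limits the lowest libraries, at 13 and 14 counts of Pcdh19.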

Other observations

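The genes that lie beside Pcdh19 on chromosome X had smaller PFOS differences, none past the test. Within 500 kb the tables hold 5 other protein-coding genes, Tnmd, Tspan6, Srpx2, Sytl4 and Cstf2. Tnmd, a gene of tendon and other connective tissue, reached at most 0.18 TPM and was not tested. Averaged over diets, the PFOS log2 difference was -0.23 ± 0.20 for Tspan6, 0.19 ± 0.30 for Srpx2, -0.26 ± 0.15 for Sytl4 and -0.10 ± 0.11 for Cstf2 (SE), beside -1.48 for Pcdh19. None of the 4 was called (edgeR, adjusted p = 0.606, 0.799, 0.435 and 0.681). On cellulose Tspan6 stood at -0.49 ± 0.33 and Sytl4 at -0.60 ± 0.25 (SE), beside -0.74 ± 0.35 for Pcdh19. Srpx2 stood at 0.65 ± 0.48 and Cstf2 at -0.01 ± 0.17 there. In the order Tspan6, Srpx2, Sytl4 and Cstf2, values were 0.36, 0.60, 0.24 and -0.24 on inulin. On pectin they were -0.57, -0.69, -0.44 and -0.06. Sytl4, a synaptotagmin-like protein of secretory granules, had the highest correlation with Pcdh19 within groups among them, at r = 0.43 over 22 libraries.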
